A study of Mus musculus with 35 samples.

Results

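The Zfp genes described here are the genes whose symbol is Zfp followed by a number, which is the mouse naming series for zinc finger proteins. They were taken from the table of RNA-seq values of hematopoietic stem and progenitor cells (HSPCs) by name alone, leaving out Zfp36, whose product is an RNA-binding protein with another kind of zinc finger. The rule found 308 genes, which is 2.57% of the 11982 gene names in the table. The rule uses names alone, but the table holds only genes that reach 1 RPKM (reads scaled by transcript length and depth) in some library, so it covers Zfp genes above that level. A further 7 names that begin with Zfp, among them Zfp36, Zfpm1 and Zfpl1, did not meet the rule.

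The cells came from the bone marrow of WT mice and of JMJD1B-/- mice, which carry a gene-trap knockout made from embryonic stem cells and so are not limited to blood cells. Both genotypes were adult animals of the mixed strain 129P2xC57BL/6J, and the controls were littermates without the trap. No other allele or treatment is named for either group. JMJD1B, encoded by Kdm3b, removes methyl groups from H3K9me2 and from H4R3me2s, and the question was which genes change in HSPCs when it is lost. PolyA RNA was sequenced in 2 libraries of each genotype, named as biological replicates, and no label says that a library was made from 1 animal or from a pool.

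Most mouse zinc finger proteins of this series have tandem C2H2 fingers, each of which reads a few bases of DNA. Many also carry a KRAB domain, which binds TRIM28 (KAP1). TRIM28 in turn brings in the H3K9 methyltransferase SETDB1, HP1 proteins and the NuRD complex, so that the bound DNA, often a retrotransposon, is packed into H3K9-methylated chromatin. KRAB zinc finger genes arose by repeated tandem duplication and lie in clusters in the genome. Other proteins with the Zfp prefix are general transcription factors, or act on RNA, ribosomes and the mitotic spindle.

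The depth, as read from the steps between low values, was 17500000 and 24600000 reads for WT, and 6110000 and 21000000 reads for replicates 1 and 2 of JMJD1B-/-. On a transcript of 1 kb, a count of 3 reads comes to 0.122 to 0.171 RPKM for WT, but to 0.491 RPKM for JMJD1B-/- replicate 1, and to 0.143 RPKM for its replicate 2. These floors cover counting error only. The targeted gene Kdm3b had 31.0 and 24.3 RPKM in WT and 4.00 and 4.63 RPKM in JMJD1B-/-, so that the genotype labels match the gene (log2 fold change −2.65, SE 0.24, adjusted p = 0.031 in limma). Xist, the RNA of the inactive X chromosome, was read at 331.6 RPKM in WT replicate 2, and nowhere else above 0.0510 RPKM. The 4 members on the X chromosome that were tested, Zfp182, Zfp275, Zfp280c and Zfp449, had no call in either direction.

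The cell type markers differed between the genotypes as well. The stem and progenitor genes summed to 295 and 263 RPKM in WT and to 164 and 218 RPKM in JMJD1B-/-, with 4 of 10 genes lower and none higher at an unadjusted p under 0.05. Kit, the receptor that marks progenitors, was present in all libraries. Erythroid genes summed to 453 and 695 RPKM in WT and to 1284 and 1848 RPKM in JMJD1B-/-, with 7 of 8 genes higher. Basophil and mast cell genes fell from 547 and 602 RPKM to 127 and 89.1 RPKM, with 7 of 7 lower. Among these is Gata2, which also stands on the stem and progenitor list and is counted as lower in both. Of 9 tested granulocyte genes 6 were lower and 2 higher. The sum over the 11 granulocyte genes in the table went from 298 and 206 to 91.1 and 57.5 RPKM. Monocyte genes summed to 106 and 131 RPKM in WT and to 101 and 25.3 RPKM in JMJD1B-/-, with 3 of 6 lower and none higher. T and NK cell genes summed to 13.0 and 21.1 RPKM in WT and to 76.7 and 12.9 RPKM in JMJD1B-/-, so that replicate 1 alone was high, with 2 of 6 higher and none lower. The B cell list had 2 genes in the table, which summed to at most 3.88 RPKM in any library, with 1 of 2 lower and none higher. No marker was listed at 0 in both libraries of a genotype. In bulk RNA, fewer cells of a type and less RNA per cell cannot be told apart, and the part of this shift in the values below was not tested.

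As a group the Zfp genes were transcribed at a modest level in HSPCs. The median over the 308 members was 5.48 RPKM in the WT mean, against 10.3 RPKM over all listed genes, and 232 members (75.3%) lay below the latter. Of the members, 24 had a WT mean over 20 RPKM (7.79%, against 28.7% of listed genes), 274 lay between 1 and 20 RPKM and 10 lay under 1 RPKM. By library the median of the members was 5.75 and 5.51 RPKM in WT and 5.09 and 6.22 RPKM in JMJD1B-/-. The JMJD1B-/- libraries thus lay on either side of the WT libraries, as the plot of levels in both genotypes shows gene by gene.

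**Figure D1:**
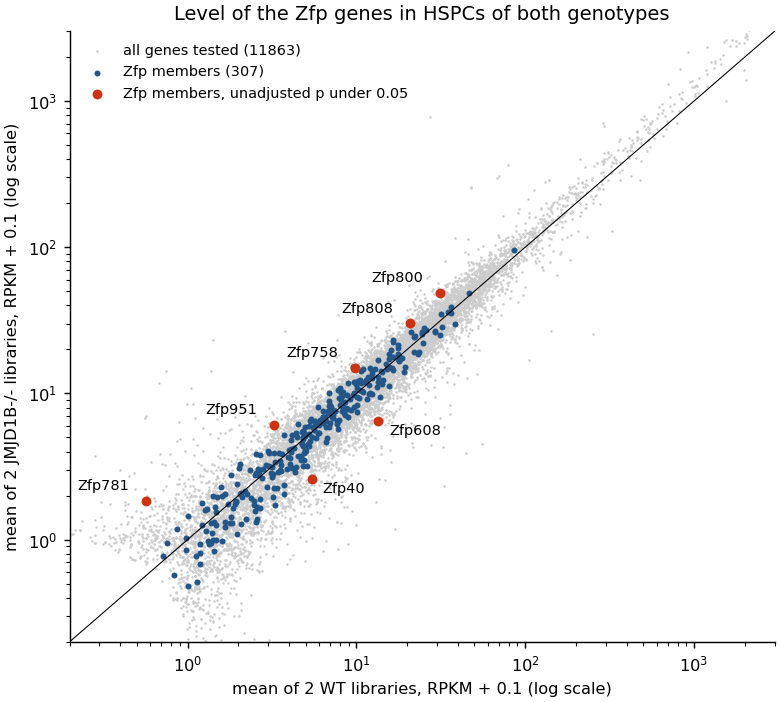
Mean RPKM of the 2 WT libraries (x axis) against the mean of the 2 JMJD1B-/- libraries (y axis), both with 0.1 added and on log scales, for all 11863 genes tested (grey), the 307 tested Zfp members (blue) and the 7 members with an unadjusted p under 0.05 (red). The line marks equal levels, and the Zfp members lie along it, with Zfp40 and Zfp608 below it and the other 5 red points above it.

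The 8 members with the highest WT level were Zfp207, Zfp106, Zfp692, Zfp146, Zfp445, Zfp91, Zfp644 and Zfp62. Zfp207, also known as BuGZ, which binds spindle microtubules and the checkpoint protein BUB3, stood far above the rest with 84.1 and 86.6 RPKM in WT and 86.7 and 103 RPKM in JMJD1B-/-. The RNA-binding protein gene Zfp106 followed with 45.0 and 47.2 RPKM in WT and 43.3 and 53.8 RPKM in JMJD1B-/-. Zfp692 had 36.7 and 40.0 RPKM in WT and 29.1 and 30.2 RPKM in JMJD1B-/-. Of these 8 it had the largest difference on the log2 scale, and its groups did not overlap (log2 fold change −0.37, SE 0.18, unadjusted p = 0.076, adjusted p = 0.541 in limma). Its unadjusted p fell under 0.05 with quantile normalization and with the gene-by-gene model, and in none of the other alternatives. The other 5, from Zfp146 to Zfp62, had WT means between 31.8 and 36.2 RPKM, and in WT the libraries of Zfp146 overlapped those of Zfp445 and Zfp91, as those of Zfp644 overlapped those of Zfp62, so these neighbours in the order do not differ beyond their spread. None of the 8 had an unadjusted p under 0.05, and the log2 fold changes of the 7 apart from Zfp692 lay between −0.18 and 0.15.

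The difference between the genotypes was then tested for each gene with limma on log2(RPKM + 0.1), over all 11863 genes with a mean of at least 0.5 RPKM. The pseudocount shrinks the fold changes of low genes. Of the 308 members, 307 were tested. The exception, Zfp300, had 0.517 and 1.04 RPKM in WT and 0.0703 and 0.1996 RPKM in JMJD1B-/-, where the latter are near or under the level of 3 reads on 1 kb. Because the table holds only genes that reach 1 RPKM in some library, 11 members are listed through WT libraries alone and 5 through JMJD1B-/- libraries alone. The former are Zfp174, Zfp300, Zfp459, Zfp467, Zfp473, Zfp532, Zfp580, Zfp600, Zfp937, Zfp941 and Zfp964, and their presence in the table depended on a higher WT value. The latter are Zfp287, Zfp296, Zfp775, Zfp781 and Zfp786, and their presence in the table depended on a higher JMJD1B-/- value. Zfp580 was the single member listed at 0 in a library, JMJD1B-/- replicate 1, with 1.14 and 0.332 RPKM in WT and 0.948 RPKM in JMJD1B-/- replicate 2.

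Few Zfp genes were called different between JMJD1B-/- and WT HSPCs. The lack of a call does not show an unchanged level. In the median member the interval reached 0.73 to either side on the log2 scale, so smaller changes could not be seen. At an unadjusted p under 0.05 in limma, 2 of 307 members were lower in JMJD1B-/- HSPCs, Zfp40 and Zfp608, where 6.33% of all genes tested were lower. Another 5 members were higher, Zfp781, Zfp951, Zfp800, Zfp758 and Zfp808, where 3.81% of all genes tested were higher. Together the 7 called members make up 2.28% of those tested, against 10.1% of all genes. With Benjamini-Hochberg adjustment over all genes tested, no member passed 0.05, the lowest adjusted p being 0.320, and 5 of all genes did (0.0421%). A split of 2 lower against 5 higher members became 5 against 3 with median-ratio scaling, where 6.37% of all genes were lower and 5.17% higher.

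The count rests on single libraries. Without JMJD1B-/- replicate 2, which leaves the shallowest library as the one JMJD1B-/- sample, 35 members were lower and 8 higher (14.0% of members, 21.1% of all genes, with 14.9% of all genes lower and 6.15% higher). Without JMJD1B-/- replicate 1, 6 were lower and 13 higher (6.17% of members, 23.1% of all genes, with 11.5% of all genes lower and 11.6% higher). Without WT replicate 1, 0 members were lower and 2 higher, and without WT replicate 2, 1 was lower and 1 higher. In each of these fits the share of members called was below that of all genes tested. In each case the library left alone in its group was taken to vary like the others.

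Counted without a test, the JMJD1B-/- libraries were both lower than either WT library for 63 members (20.5%), where 22.7% of all genes tested did so. Both lay above for 57 members (18.6%), where 20.1% of all genes did so. Each share of members lies near its background. Quantile normalization turned the split of 63 lower against 57 higher into 35 against 91. The shares of all genes with that scaling were not counted, so these numbers have no background beside them.

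The log2 fold changes of the members had a median of −0.04 and quartiles of −0.27 and 0.17. Over all genes tested the median was −0.02 and the quartiles were −0.33 and 0.22. With quantile normalization both medians turned positive, at 0.06 for the members and 0.02 for all genes, so no direction holds for the family. Of the members, 256 (83.4%) had a log2 fold change under 0.5 in size, against 74.0% of all genes. For 5 (1.63%) it exceeded 1 in size, against 8.88% of all genes. Among these 5, Zfp467 and Zfp580 had no call and are in the table only through a WT value. The standard error was 0.31 in the median member and 0.27 in the median gene. The narrower spread of the members was thus not accompanied by smaller errors.

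The members also agreed between replicates about as well as other genes. The median absolute log2 ratio between the WT libraries was 0.23 for the members and 0.22 for all genes tested. Between the JMJD1B-/- libraries it was 0.30 for the members and 0.36 for all genes tested. The 95% interval reached 0.73 to either side in the median member, which describes the precision for a typical Zfp gene.

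**Figure D2:**
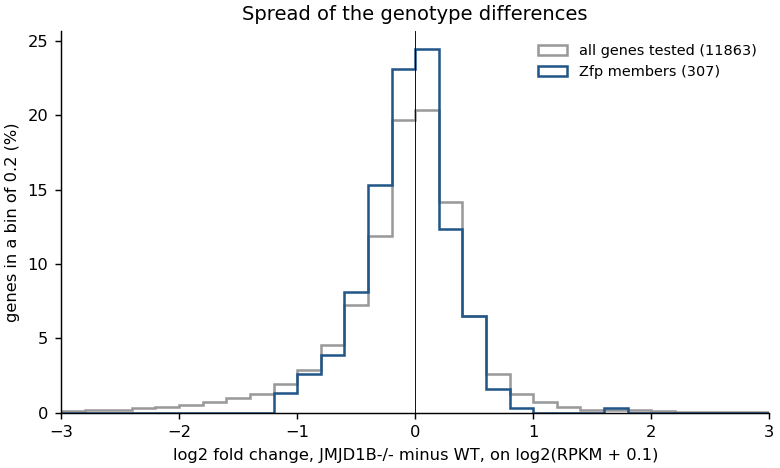
Share of genes (y axis, percent) in bins of the log2 fold change of JMJD1B-/- over WT (x axis, on log2(RPKM + 0.1)) for all 11863 genes tested (grey) and the 307 tested Zfp members (blue); values outside −3 to 3 are not drawn. The members form the narrower curve, with 83.4% of them within 0.5 of 0 against 74.0% of all genes.

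Of the 2 members that fell, Zfp608 had the lowest p of all members. The family partner of Zfp609, it encodes a large nuclear protein that has been linked to the control of Rag gene expression in thymocytes. Its level was 15.2 and 11.6 RPKM in WT and 7.70 and 5.11 RPKM in JMJD1B-/-. The groups did not overlap, and the JMJD1B-/- mean was 47.8% of the WT mean (log2 fold change −1.07, SE 0.29, unadjusted p = 0.0074, adjusted p = 0.320 in limma). Without WT replicate 1 the log2 fold change was −0.87 with an unadjusted p of 0.090 in limma, and the other 3 libraries could each be left out with an unadjusted p under 0.05.

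Zfp40 had 6.46 and 4.18 RPKM in WT and 1.44 and 3.55 RPKM in JMJD1B-/-. JMJD1B-/- replicate 1, the library with the fewest reads, was the low one, and replicate 2 lay just under the lower WT library (log2 fold change −1.16, SE 0.49, unadjusted p = 0.047, adjusted p = 0.489 in limma). Without JMJD1B-/- replicate 1 the log2 fold change was −0.54 and the unadjusted p 0.128, and without JMJD1B-/- replicate 2 it was −1.78. The call was lost also without WT replicate 1, where the log2 fold change was −0.85 and the unadjusted p 0.284, and without WT replicate 2, where they were −1.47 and 0.077. With a filter at a mean of 1 RPKM, limma gave Zfp40 an unadjusted p of 0.050, just above the threshold.

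Of the 5 that rose, Zfp800 kept its call in the most alternatives. ZFP800 is a transcription factor needed for the development of endocrine cells in the pancreas. Its level was 29.1 and 33.2 RPKM in WT and 45.6 and 51.4 RPKM in JMJD1B-/-, so that the groups were well apart (log2 fold change 0.64, SE 0.18, unadjusted p = 0.0096, adjusted p = 0.344 in limma). Without WT replicate 1 the unadjusted p was 0.094 at a log2 fold change of 0.55, and it stayed under 0.05 in the other 13 alternatives.

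Zfp781 lay under 1 RPKM in WT, above the 3-read floors, and over 1 RPKM in both JMJD1B-/- libraries. It had 0.441 and 0.491 RPKM in WT and 1.81 and 1.69 RPKM in JMJD1B-/-. The replicates lay close together in each genotype, but the gene is in the table only through its JMJD1B-/- values (log2 fold change 1.71, SE 0.64, unadjusted p = 0.030, adjusted p = 0.444 in limma). The unadjusted p was 0.130 without WT replicate 1, 0.119 without WT replicate 2 and 0.059 without JMJD1B-/- replicate 1, with log2 fold changes of 1.65, 1.77 and 1.66.

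Zfp951 had 4.06 and 2.26 RPKM in WT and 6.20 and 5.86 RPKM in JMJD1B-/-. The WT libraries were further apart than the JMJD1B-/- libraries, and the groups did not overlap (log2 fold change 0.97, SE 0.37, unadjusted p = 0.032, adjusted p = 0.449 in limma). Without WT replicate 2, the lower of the WT libraries, the log2 fold change was 0.56 with an unadjusted p of 0.260.

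Zfp758 and Zfp808 rose by about the same factor. Zfp758 had 9.62 and 9.73 RPKM in WT and 17.1 and 12.4 RPKM in JMJD1B-/-, with replicate 1 the higher (log2 fold change 0.59, SE 0.24, unadjusted p = 0.046, adjusted p = 0.485 in limma). Zfp808 had 23.5 and 18.01 RPKM in WT and 32.9 and 27.2 RPKM in JMJD1B-/-, again with replicate 1 the higher (log2 fold change 0.54, SE 0.22, unadjusted p = 0.042, adjusted p = 0.480 in limma). Both groups were apart, but the gap from the higher WT to the lower JMJD1B-/- library was no larger than the distance between the JMJD1B-/- libraries. For Zfp758 the log2 fold change was 0.58, 0.59 and 0.36 without WT replicate 1, WT replicate 2 and JMJD1B-/- replicate 1, with unadjusted p of 0.168, 0.158 and 0.162. For Zfp808 it was 0.73, 0.35 and 0.40, with unadjusted p of 0.052, 0.293 and 0.095 in limma. These losses were not confined to single libraries, since median-ratio scaling gave unadjusted p of 0.063 for Zfp758 and 0.055 for Zfp808.

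**Figure D3:**
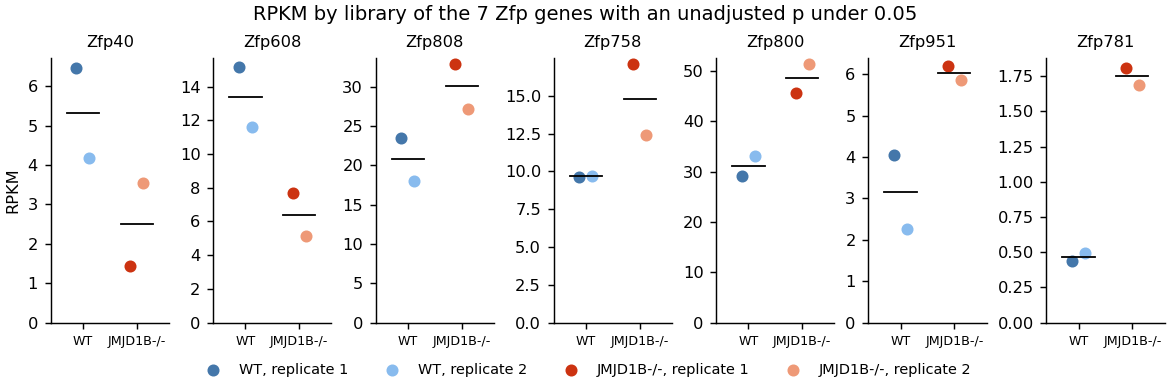
RPKM (y axis, from 0, a scale of its own for each gene) of the 7 Zfp members with an unadjusted p under 0.05 in the 2 WT libraries (blue) and the 2 JMJD1B-/- libraries (red); dark points are replicate 1, light points replicate 2 and bars the means. The groups do not overlap in any of the 7. In Zfp40, Zfp758 and Zfp808 the distance between JMJD1B-/- replicates is larger than the gap to WT.

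Promoter sequence was set beside these calls, because the study examined histone marks at promoters. The windows shown here are shorter than the promoter regions the study used. RefSeq (build GRCm38.p6) gave a window for 253 of the 307 tested members, and for 5 of the 7 called members, all of them genes that rose. The 250 bases before the annotated start of those 5 are shown 5′ to 3′ on the strand of the gene, to let them be compared. Capitals mark CCAATCA, an extended form of the CCAAT box, which binds the factor NF-Y. The word was chosen after these sequences were seen.
Zfp781 (chr10:81930513-81930762, minus strand): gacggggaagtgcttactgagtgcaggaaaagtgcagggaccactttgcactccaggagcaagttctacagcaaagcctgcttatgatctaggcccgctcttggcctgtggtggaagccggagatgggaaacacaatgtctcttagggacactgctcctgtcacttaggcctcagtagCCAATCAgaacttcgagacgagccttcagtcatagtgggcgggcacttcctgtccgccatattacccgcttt
Zfp951 (chr5:104860028-104860277, minus strand): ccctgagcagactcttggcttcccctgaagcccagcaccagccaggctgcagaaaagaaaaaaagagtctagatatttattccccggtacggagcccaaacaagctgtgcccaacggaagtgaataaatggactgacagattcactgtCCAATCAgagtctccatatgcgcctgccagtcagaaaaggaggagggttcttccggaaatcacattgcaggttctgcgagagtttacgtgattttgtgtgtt
Zfp808 (chr13:62129640-62129889, plus strand): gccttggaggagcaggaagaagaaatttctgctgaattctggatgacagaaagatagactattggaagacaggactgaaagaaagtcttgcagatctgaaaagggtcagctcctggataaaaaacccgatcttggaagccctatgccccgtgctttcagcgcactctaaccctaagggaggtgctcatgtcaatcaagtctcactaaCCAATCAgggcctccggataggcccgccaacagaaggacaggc
Zfp800 (chr6:28398006-28398255, minus strand): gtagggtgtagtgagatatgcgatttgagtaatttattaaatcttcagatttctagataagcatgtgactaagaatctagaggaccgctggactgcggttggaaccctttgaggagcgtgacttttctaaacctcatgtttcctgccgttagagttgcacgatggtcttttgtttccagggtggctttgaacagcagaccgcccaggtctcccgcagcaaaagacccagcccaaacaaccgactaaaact
Zfp758 (chr17:22361213-22361462, plus strand): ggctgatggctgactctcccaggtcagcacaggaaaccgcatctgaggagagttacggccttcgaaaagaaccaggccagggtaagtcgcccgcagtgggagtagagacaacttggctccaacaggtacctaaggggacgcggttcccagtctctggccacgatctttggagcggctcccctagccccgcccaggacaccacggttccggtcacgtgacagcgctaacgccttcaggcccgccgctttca

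In Zfp781, Zfp951 and Zfp808 the word begins 72, 102 and 43 bases before the start, each time on the strand of the gene. The windows of Zfp800 and Zfp758 do not hold it on either strand. Of the 253 member windows, 50 held CCAATCA on either strand (19.8%), against 10.7% of 9517 windows of genes in the expression table and 7.65% of 27025 windows of all genes. The shorter CCAAT, which CCAATCA contains, was held by 47.8%, 37.6% and 34.5% of these. The share with GGGCGG, the GC box, was 42.7% in the members, 58.6% in the table and 32.9% over all genes, and the share with TATAAA was 5.14%, 6.42% and 13.0%. The member windows had a median of 11 CG dinucleotides, against 16 in the table and 6 over all genes. Where RefSeq lists several starts for a gene, as for Zfp800 and Zfp951, the first one listed was used. A match of these letters is not a site shown to be bound.

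The members with and without the word were then set side by side. For the 50 with CCAATCA the log2 fold change was 0.08 in the median, and for the 203 without it −0.05. Calls are not counted here, because the word was picked from called genes and neither of the members that fell, Zfp40 and Zfp608, has a window. The medians were 0.18 and 0.06 with quantile normalization, 0.10 and 0.00 without WT replicate 1, 0.05 and −0.11 without WT replicate 2, 0.10 and 0.09 without JMJD1B-/- replicate 1, and 0.00 and −0.19 without JMJD1B-/- replicate 2. The size of both medians moved with the library left out, and the sign of the second changed. Median WT levels were 6.404 and 5.49 RPKM. Since the word was picked from the windows of genes that rose, these values are a description.

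Members with a known role were taken by function from 4 short lists, and the first list held repressors of transposons or imprinted loci. In limma with all libraries, none of the 6 in the table was called in either direction. The median log2 fold change was 0.10, or 0.05 without JMJD1B-/- replicate 2 and 0.23 without replicate 1. The gene-by-gene model called 2 of the 6 higher, Zfp445 and Zfp708, beside 2.93% of all genes. Zfp445, which maintains imprints, had 36.1 and 36.0 RPKM in WT and 38.4 and 38.9 RPKM in JMJD1B-/-, a rise of 0.10 on the log2 scale with a 95% interval from −0.30 to 0.51. Zfp809, which silences murine leukemia virus proviruses, had 11.5 and 10.8 RPKM in WT and 11.3 and 12.5 RPKM in JMJD1B-/-. For these the JMJD1B-/- libraries lay within a few RPKM of WT.

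Zfp568, the repressor of a placental Igf2 promoter, had 7.21 and 7.45 RPKM in WT and 5.91 and 8.97 RPKM in JMJD1B-/-. Zfp932 had 24.5 and 25.1 RPKM in WT and 20.6 and 23.4 RPKM in JMJD1B-/-, and Zfp961 had 11.4 and 12.6 RPKM in WT and 12.7 and 17.1 RPKM in JMJD1B-/-. Zfp708 had the largest log2 fold change of the list, with 2.55 and 2.64 RPKM in WT and 3.72 and 3.66 RPKM in JMJD1B-/-. Its groups did not overlap and its replicates lay close together, yet at this level the error was wide (log2 fold change 0.49, SE 0.35, unadjusted p = 0.195, adjusted p = 0.660 in limma). Zfp57 and Zfp819 were not analysed here.

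The second list held transcription factors and partners of chromatin enzymes. None of the 11 was called in either direction with all libraries. The median log2 fold change was −0.03, turning to 0.05 with quantile normalization, to 0.08 without JMJD1B-/- replicate 1 and to 0.04 without WT replicate 1. Without JMJD1B-/- replicate 2 it was −0.002. In Zfp516 and Zfp143 a single JMJD1B-/- library stood apart from the rest, as given below. Zfp462, a partner of the H3K9 methyltransferases G9a and GLP, was low in every library, with 1.64 and 0.899 RPKM in WT and 1.37 and 1.04 RPKM in JMJD1B-/-. Its 95% interval ran from −1.43 to 1.37 on the log2 scale, so a change by 2-fold in either direction could not have been seen. Zfp217, an oncogene product that works with LSD1 and CoREST, had 26.3 and 20.3 RPKM in WT and 20.7 and 17.8 RPKM in JMJD1B-/-, and the groups overlapped.

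Zfp143, an activator bound at many promoters, had 7.72 and 9.99 RPKM in WT and 13.6 and 9.94 RPKM in JMJD1B-/-, with replicate 1 alone above WT. Zfp516 had 4.42 and 3.65 RPKM in WT and 4.44 and 1.58 RPKM in JMJD1B-/-, with replicate 2 alone below WT. The log2 fold changes of these 2 were 0.40 and −0.58, with standard errors of 0.27 and 0.51. For the other 7, which include Zfp148, Zfp281 and Zfp384, the log2 fold changes lay between −0.27 and 0.18.

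The third list held proteins that act on RNA, ribosomes, the spindle and ubiquitin. None of the 9 was called in either direction with all libraries. The median log2 fold change was −0.11, which turned to 0.15 without JMJD1B-/- replicate 1 and was −0.26 without JMJD1B-/- replicate 2. It was −0.02 without WT replicate 1 and −0.05 without WT replicate 2 or with quantile normalization, so the value rests on single libraries. Zfp598, the ubiquitin ligase that marks collided ribosomes, had 19.7 and 17.4 RPKM in WT and 14.3 and 20.6 RPKM in JMJD1B-/-. Zfp622, a factor in the maturation of the large ribosomal subunit, had 17.7 and 20.8 RPKM in WT and 13.3 and 16.7 RPKM in JMJD1B-/-. Its JMJD1B-/- libraries both lay below WT, with a log2 fold change of −0.36 and a 95% interval from −0.88 to 0.16.

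Zfp385a, whose product binds p53 and mRNA, showed the widest scatter of the third list, with 6.57 and 5.63 RPKM in WT and 3.26 and 9.37 RPKM in JMJD1B-/-. The JMJD1B-/- libraries lay on opposite sides of WT, and without JMJD1B-/- replicate 2 the log2 fold change was −0.88, against −0.13 with all libraries. Zfp91, Zfp326, Zfp346 and Zfp830 had log2 fold changes between −0.19 and 0.06.

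The fourth list held regulators named from work on blood cells, and 1 of its 7 members, Zfp608, was lower, with none higher, beside the 6.33% of all genes that were lower. The median log2 fold change was −0.14, or −0.06 without WT replicate 1, −0.08 without WT replicate 2, −0.06 with a filter at a mean of 1 RPKM and −0.02 with quantile normalization. Zfp521, a factor of stem and progenitor cells that holds back B cell and erythroid programs, had 5.89 and 3.53 RPKM in WT and 3.09 and 3.69 RPKM in JMJD1B-/-, and the groups overlapped (log2 fold change −0.42, SE 0.37, unadjusted p = 0.287, adjusted p = 0.725 in limma). Zfp335, which is needed by maturing T cells, had 10.7 and 11.9 RPKM in WT and 11.7 and 12.7 RPKM in JMJD1B-/-. Zfp318, which controls the choice between IgM and IgD transcripts, had 6.95 and 7.60 RPKM in WT and 6.46 and 8.465 RPKM in JMJD1B-/-.

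Zfp467 had 1.35 and 0.727 RPKM in WT and 0.2498 and 0.573 RPKM in JMJD1B-/-. The value of JMJD1B-/- replicate 1 is under its 3-read floor on 1 kb, and the others are above theirs. Both JMJD1B-/- libraries lay below WT, which is in part fixed by the table, since the gene is listed only through a WT value, with a log2 fold change of −1.17 and a 95% interval from −3.16 to 0.81. Zfp831 and Zfp90 had log2 fold changes of 0.04 and −0.14. Zfp683 was not analysed here.

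**Figure D4:**
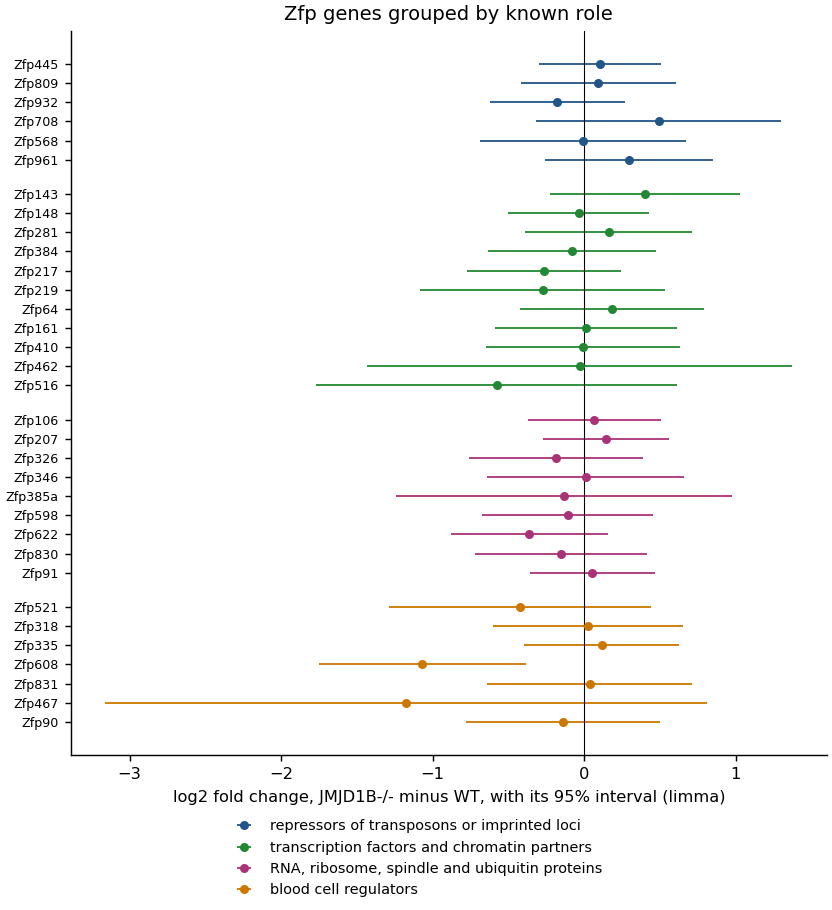
Log2 fold change of JMJD1B-/- over WT (x axis, points) with its 95% interval from limma (bars) for the 33 tested members of the 4 role lists (y axis, coloured by list). The interval of Zfp608 lies below 0, from −1.75 to −0.39, and those of the other genes include 0.

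The proteins through which KRAB zinc finger proteins act were measured beside them. Of the 18 genes of this pathway in the table, 1 was lower and none higher at an unadjusted p under 0.05, which is near the 6.33% of all genes that were lower. The median log2 fold change was 0.01, and it lay between −0.07 without WT replicate 1 and 0.11 without JMJD1B-/- replicate 1. In the latter fit 3 genes were lower, with Chd3 and Atrx added, where 11.5% of all genes were lower. With quantile normalization 2 were lower, with Atrx added, beside 6.02% of all genes. The gene-by-gene model called Hdac1 higher, beside 2.93% of all genes. The scaffold Trim28 had 96.9 and 107 RPKM in WT and 84.1 and 111 RPKM in JMJD1B-/-, so that the groups overlapped. The H3K9 methyltransferase gene Setdb1 had 28.9 and 28.8 RPKM in WT and 25.9 and 33.8 RPKM in JMJD1B-/-, also overlapping.

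The gene that fell was Atf7ip, whose product is the cofactor that stabilises SETDB1 in the nucleus. It had 53.6 and 55.6 RPKM in WT and 28.3 and 32.4 RPKM in JMJD1B-/-, at 55.5% of the WT mean. The replicates lay close together and the groups were far apart (log2 fold change −0.85, SE 0.18, unadjusted p = 0.0018, adjusted p = 0.208 in limma). With each library left out in turn the log2 fold change lay between −0.95 and −0.75, and the unadjusted p stayed under 0.05 in every alternative run.

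The HP1 genes Cbx1, Cbx3 and Cbx5 had log2 fold changes of −0.09, 0.04 and 0.21. Among the NuRD genes, Chd4 had 117 and 119 RPKM in WT and 101 and 122 RPKM in JMJD1B-/-. Zfp410, the zinc finger factor that drives transcription of Chd4, had 8.40 and 9.64 RPKM in WT and 7.43 and 10.8 RPKM in JMJD1B-/-. In both genes the JMJD1B-/- libraries lay on either side of WT, with replicate 2 the higher. Chd3, Hdac1 and Hdac2 had log2 fold changes of −0.38, 0.33 and 0.18.

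The HUSH complex genes Mphosph8 and Pphln1 had log2 fold changes of −0.06 and 0.27, and Morc2a, whose product works with HUSH, had 0.13. For Atrx and Daxx, which deposit histone H3.3 at silenced repeats, they were −0.31 and 0.00, and for the remodeller gene Smarcad1 it was 0.00. Dnmt1 and Uhrf1, which copy DNA methylation, had 0.01 and 0.29. Standard errors in this pathway lay between 0.17 and 0.24, below the 0.31 of the median Zfp member. Fam208a was not analysed here.

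The place of the members in the genome was taken from the order of genes in RefSeq, all 308 members having been matched, 296 by symbol and 12 by synonym. Of the 307 tested, 205 had another Zfp gene within 3 positions and 102 did not. The members with a Zfp neighbour had a median WT level of 4.74 RPKM, and those without had 7.80 RPKM. The median log2 fold change was −0.05 for the members with a neighbour, with 1 lower and 4 higher. It was 0.01 for those without, with 1 lower and 1 higher. Both shares of called members lie under the 10.1% of all genes tested. The definition was chosen after the data had been seen.

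Members no more than 4 positions apart formed 7 runs of at least 7 genes, which held 82 members. The longest, with 18 genes from Zfp712 to Zfp273, stood at a median of 0.12 on the log2 scale, with no called gene. Its median was 0.02 without WT replicate 2 or without JMJD1B-/- replicate 2, and 0.23 with quantile normalization. The run of 17 genes from Zfp677 to Zfp40 had a median of −0.16 and held both Zfp758, which rose, and Zfp40, which fell. Between them in the order of tested members lie Zfp946 and Zfp945, with log2 fold changes of −0.04 and −0.23 and no call. The called genes of the run therefore moved in opposite directions. The median of this run was 0.04 without JMJD1B-/- replicate 1, −0.24 without replicate 2 and −0.05 with quantile normalization.

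In the 14 genes from Zfp84 to Zfp146 the log2 fold change was below 0 for 11 and above 0 for 3, with a median of −0.17 (−0.01 with quantile normalization) and no called gene. The median was −0.06 without WT replicate 1, −0.29 without WT replicate 2, −0.08 without JMJD1B-/- replicate 1, and −0.28 without JMJD1B-/- replicate 2, where 3 of the 14 genes were lower beside 14.9% of all genes. The median level of this run was 5.52 and 3.99 RPKM for WT, against 3.13 and 3.66 RPKM for JMJD1B-/-. Both JMJD1B-/- medians lay below both WT medians, by less than the distance between the WT libraries. The 10 genes from Zfp786 to Zfp862 had a median of −0.28, which was 0.06 without JMJD1B-/- replicate 1 and −0.61 without replicate 2, where 3 of the 10 were lower beside 14.9% of all genes.

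The 9 genes from Zfp180 to Zfp94 had the lowest median of the 7 runs, −0.38, with 7 genes below 0 and none called. Their median level was 3.18 and 2.06 RPKM in WT and 1.59 and 2.27 RPKM in JMJD1B-/-, so that the groups overlapped. With quantile normalization the median of this run was −0.10, and with each library left out it lay between −0.87 and −0.18. Without WT replicate 1 it was −0.18 and without WT replicate 2 it was −0.87, so its size depended on which WT library it was set against. Without JMJD1B-/- replicate 2, 2 of the 9 were lower beside 14.9% of all genes. Neighbouring Zfp genes can be similar in sequence, which was not compared here. How reads that fit several genes were assigned is not given in the sources used here, so values within a run may share reads.

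**Figure D5:**
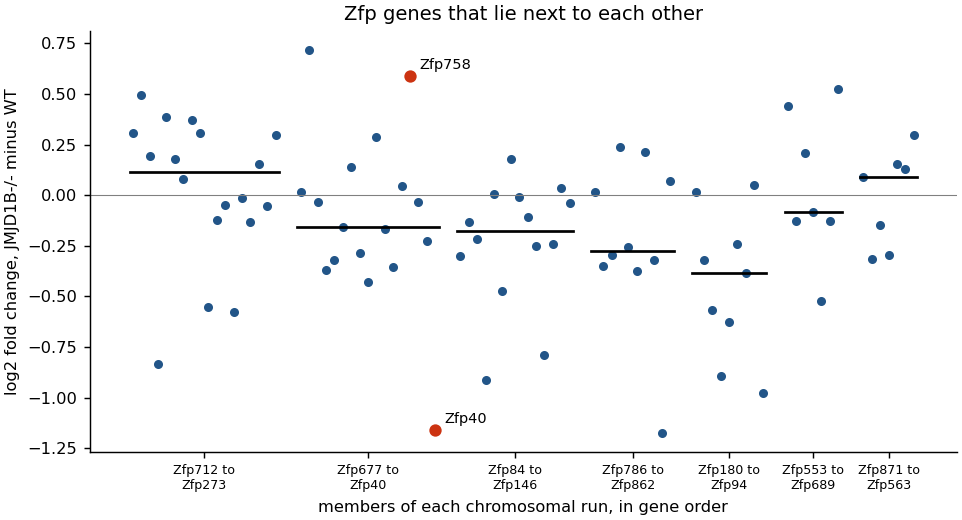
Log2 fold change of JMJD1B-/- over WT (y axis) of the 82 members in 7 runs of neighbouring Zfp genes, in gene order within each run (x axis); black bars are medians of a run and red points have an unadjusted p under 0.05. Run medians lie between −0.38 and 0.12, and the red points Zfp758 and Zfp40 lie on opposite sides of 0 in the same run.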

How the data were processed

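The authors deposited 1 table of RPKM values (a gene's reads scaled by transcript length in kb and by sequencing depth) with 1 added to each, which was subtracted here; genes below 1 RPKM in all 4 libraries are not in it. The submitters' processing notes name TopHat2, Novoalign and mm9 without roles, and the counting program and annotation are not given in the sources used here. The column of JMJD1B-/- replicate 1 is marked "cat". ChIP-seq was not analysed here. Entries that share a gene name were averaged, which touched no member.

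On log2(RPKM + 0.1), genes with a mean of at least 0.5 RPKM entered limma 3.58.1 under R 4.3.3 (trended variance, two-sided, no replicate term, Benjamini-Hochberg over all 11863 genes). With 2 libraries a group, exact permutation gives no p below 0.333. The members and lists were chosen with earlier results of these data known. Named members were those with an unadjusted p under 0.05, a mean of at least 1 RPKM and groups that do not overlap, the 8 with the highest WT level and those of the role lists; members listed through 1 genotype and those of the runs were named after their values were seen. RefSeq (GRCm38.p6) gave gene order and promoter windows, and no coordinates of mm9. The alternatives were other pseudocounts, filters, scalings and variance models, a replicate term, the highest of shared entries and each library left out.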

Additional observations from a re-analysis of the deposited data

How the results depend on the processing

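A replicate block changed the counts of called members from 2 lower and 5 higher to 3 and 6, where 7.70% of all genes were lower and 4.81% higher. The replicate numbers are not shown to pair libraries (correlation of same-numbered deviations −0.05 over 11863 genes, with 2 pairs). Members lower numbered 1 with a filter at a mean of 1 RPKM, beside 6.16% of all genes, and 5 with median-ratio scaling, beside 6.37%. They numbered 7 without a variance trend, beside 6.47%, and 5 with the gene-by-gene model, beside 4.32%. Members higher numbered 3 with median-ratio scaling, beside 5.17% of all genes, and 10 with the gene-by-gene model, beside 2.93%. Members below both WT libraries numbered 35 and members above them 91 with quantile normalization, where the shares of all genes were not counted. With each library left out, the numbers ranged from 0 to 35 lower, 1 to 13 higher, 80 to 153 below and 83 to 137 above. Each of these fits sets 1 library against 2, where groups stay apart more often by chance. The shares of all genes below and above were not counted for them. The counts below and above therefore cannot be set against those from all 4 libraries. The median log2 fold change of the members lay between −0.13 without JMJD1B-/- replicate 2 and 0.09 without JMJD1B-/- replicate 1. Its sign was thus not fixed. Each move was under the spread between replicates, 0.14, which itself includes the gap between the JMJD1B-/- libraries. No member passed an adjusted p of 0.05 with all 4 libraries. Fits without a JMJD1B-/- replicate leave 1 library in that group, and their adjusted calls are not counted here. The causes were not tested.

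Of the 7 called members, the number of the 14 alternatives that kept an unadjusted p under 0.05 was 13 for Zfp800, 12 for Zfp608 and Zfp951, 10 for Zfp781 and 7 for Zfp40, Zfp758 and Zfp808, all with the same direction. The gene-by-gene model gave a p above 0.05 for 5 of them, all but Zfp781 and Zfp800.

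Genes without a call changed sign in some alternatives. With quantile normalization the log2 fold change was −0.061 for Cbx3, −0.089 for Dnmt1, 0.053 for Zfp410, 0.28 for Zfp462 and 0.062 for Zfp568, and with median-ratio scaling it was 0.0025 for Smarcad1. With each library left out in turn it ranged from −0.26 to 0.075 for Cbx1, −0.097 to 0.18 for Cbx3, −0.23 to 0.049 for Chd4, −0.11 to 0.11 for Daxx, −0.057 to 0.074 for Dnmt1, −0.086 to 0.35 for Morc2a, −0.24 to 0.12 for Mphosph8, −0.16 to 0.23 for Setdb1 and −0.088 to 0.082 for Smarcad1. Likewise it ranged from −0.27 to 0.13 for Trim28, −0.089 to 0.22 for Zfp106, −0.23 to 0.15 for Zfp146, −0.10 to 0.026 for Zfp148, −0.22 to 0.24 for Zfp161, −0.62 to 0.079 for Zfp219, −0.17 to 0.22 for Zfp318, −0.25 to 0.27 for Zfp346 and −0.27 to 0.11 for Zfp384. In the same way it ranged from −0.88 to 0.61 for Zfp385a, −0.27 to 0.26 for Zfp410, −0.43 to 0.37 for Zfp462, −1.30 to 0.14 for Zfp516, −0.31 to 0.29 for Zfp568, −0.37 to 0.15 for Zfp598, −0.053 to 0.13 for Zfp831 and −0.015 to 0.13 for Zfp91.

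The split by KRAB domain was not run, because no protein sequences were used here. Of the members, 25 lay under 1 RPKM in JMJD1B-/- replicate 1, the library with the fewest reads, against 10 to 17 in the other libraries, and the part of depth in this was not tested.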
